A study of Mus musculus with 21 samples.

Results

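The cell division genes described here are 33 genes of DNA replication (S phase) and mitosis, taken by symbol from a table of read counts with 21878 rows, 1 row per gene symbol. All 33 were found in the table, 8 of them S phase genes (Ccne2, Mcm2, Mcm3, Mcm5, Mcm6, Pcna, Rrm2 and Tyms) and 25 of them genes of mitosis. The libraries were made from neurons of the cochlea of mice at postnatal day 7, which the labels call spiral ganglion neurons. About 50 neurons were drawn up by micropipette for each library, and their polyadenylated RNA was amplified by Smart-seq2, a method that covers whole transcripts of few cells. The 21 libraries fell into 6 groups by virus and cochlear region, apex or base. Control mice carried an adeno-associated virus (AAV) with EGFP and are labelled wild type, and they gave 4 libraries from each region. DN-mHCN2 mice carried an AAV with a site-mutated, dominant-negative HCN2 channel and gave 4 libraries from the apex and 3 from the base. Truncated SK3 mice carried an AAV with a truncated, dominant-negative SK3 channel and gave 3 libraries from each region. HCN2 is a cation channel opened by hyperpolarisation, and SK3 is a potassium channel opened by calcium. The labels name neither the promoter that drove the inserts nor the share of neurons that took up virus. Libraries of 1 group are labelled as biological replicates with no animal named, so p-values measure the spread between these libraries only.

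A cell that divides copies its DNA in S phase and parts the copies in mitosis, and the genes of each phase are switched on together and fall silent when a cell leaves the cycle. S phase genes are controlled mainly by E2F transcription factors. Genes of mitosis are held off in resting cells by the DREAM complex, and they are switched on late in the cycle by B-MYB and FOXM1. Spiral ganglion neurons stop dividing before birth, whereas glia, fibroblasts and cells of blood vessels around them can still divide in a young cochlea. Several S phase genes, such as Pcna, also serve DNA repair and are expressed in cells that do not divide.

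Levels are given as CPM, the counts of a gene per 1000000 counts of a library after TMM scaling, a correction for libraries in which a few genes take a large share of the counts. Library totals ran from 10411634 to 15138780 counts, so that 1 count was worth 0.0653 to 0.102 CPM. Markers of spiral ganglion neurons such as Tubb3, Nefl and Snap25 were counted in every library, with none of the 11 at 0, and summed to between 8909 and 17981 CPM. Markers of Schwann cells and satellite glia summed to between 9159 and 42162 CPM, so glial RNA was present in all libraries beside that of neurons. In such pools, fewer cells of a type and less RNA per cell cannot be told apart.

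The 33 genes together were low in most libraries and high in a few. Their summed level was 97.9 to 142.6 CPM in control apex, 112.9 to 226 in control base and 100.6 to 251 in DN-mHCN2 apex. It was 106.7 to 144.9 CPM in truncated SK3 apex, 134.5 to 407 in truncated SK3 base and 101.8 to 626 in DN-mHCN2 base. The base and apex groups thus had similar low ends, and within each virus the base group had the higher top. As group means, the sums were 116 ± 19.3 CPM (SD, n = 4) in control apex, 147 ± 53.3 (n = 4) in control base, 152 ± 67.7 (n = 4) in DN-mHCN2 apex, 296 ± 287 (n = 3) in DN-mHCN2 base, 131 ± 21.2 (n = 3) in truncated SK3 apex and 232 ± 152 (n = 3) in truncated SK3 base. The SD of DN-mHCN2 base was nearly as large as its mean. Without replicate 1 of that group the mean was 130.5 CPM.

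A single library, replicate 1 of DN-mHCN2 base, stood apart and bears on every result below that includes its group. The 25 genes of mitosis summed to 479.5 CPM there, against 58.1 and 42.9 CPM in replicates 2 and 3 of the same group. Replicate 3 of truncated SK3 base came next with 244 CPM, against 53.4 and 80.8 CPM in the other two. The remaining 19 libraries lay between 24.2 and 108 CPM with a median of 46.05 CPM, and replicate 3 of control base was the highest of them. DN-mHCN2 base replicate 1 was thus 10.4 times, and truncated SK3 base replicate 3 was 5.31 times, the median of the other 19.

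**Figure D1:**
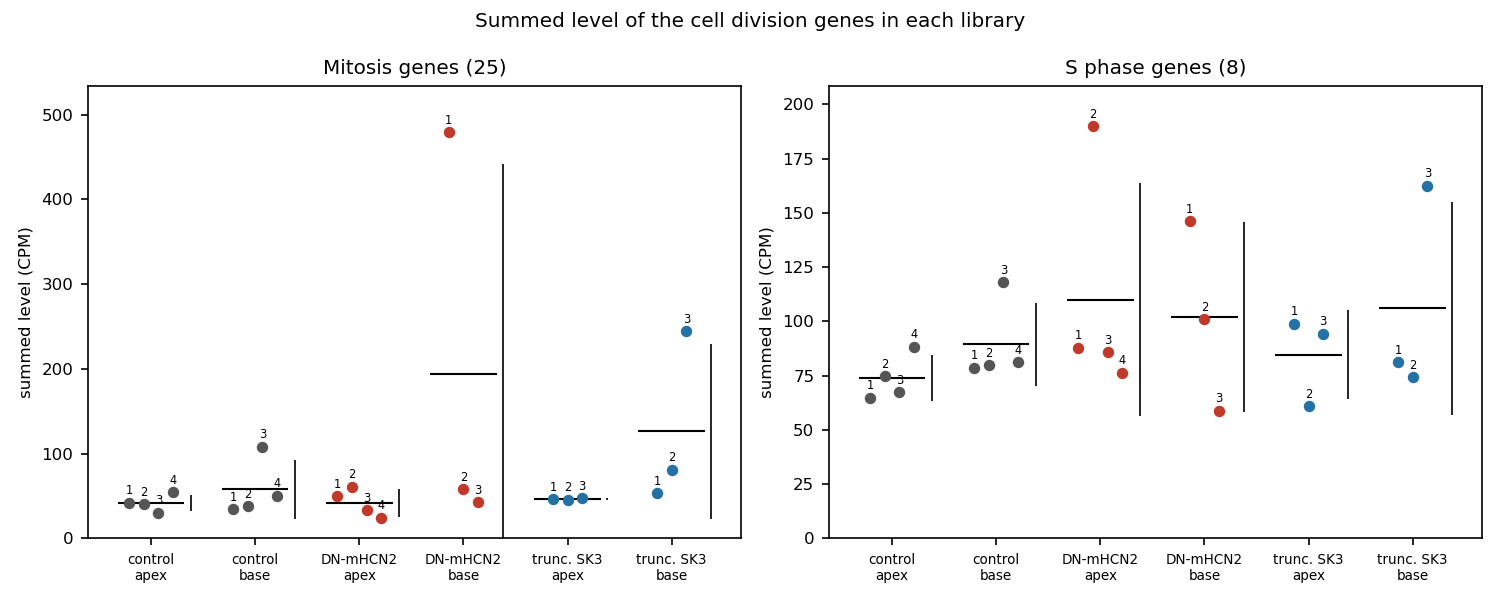
Summed level in CPM of the 25 mitosis genes (left) and the 8 S phase genes (right) in each of 21 libraries, grouped by virus and region. Points are libraries with their replicate number, horizontal lines are group means, and vertical lines span 1 SD to either side, cut off at 0. The mitosis genes reach 479.5 CPM in DN-mHCN2 base replicate 1 and 244 CPM in truncated SK3 base replicate 3, whereas the S phase genes are highest in DN-mHCN2 apex replicate 2 at 190 CPM.

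Most of the members shared this order of libraries. DN-mHCN2 base replicate 1 was the highest of 21 libraries for 23 of 33 members, all of them genes of mitosis, where 8.3% of the 14968 tested genes had their highest value. Truncated SK3 base replicate 3 was the highest for 5 members (Mcm2, Mcm5, Rrm2, Tyms and Kif11), against 5.24% of tested genes. These libraries were the top pair for 16 members, 15 of them genes of mitosis, against 1.27% of tested genes. Among the mitosis genes, only Bub1, a kinase of the spindle checkpoint, and Kif11, the motor that pushes spindle poles apart, were highest elsewhere: Bub1 reached 4.40 CPM in DN-mHCN2 apex replicate 3. All 33 members were at 1 CPM or more in DN-mHCN2 base replicate 1, 30 were in truncated SK3 base replicate 3 and in control base replicate 3, and 10 to 28 were in the other 18. The raw count of the members was 9347 in DN-mHCN2 base replicate 1 and 4206 in truncated SK3 base replicate 3, and it ran from 1110 to 3690 elsewhere.

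**Figure D2:**
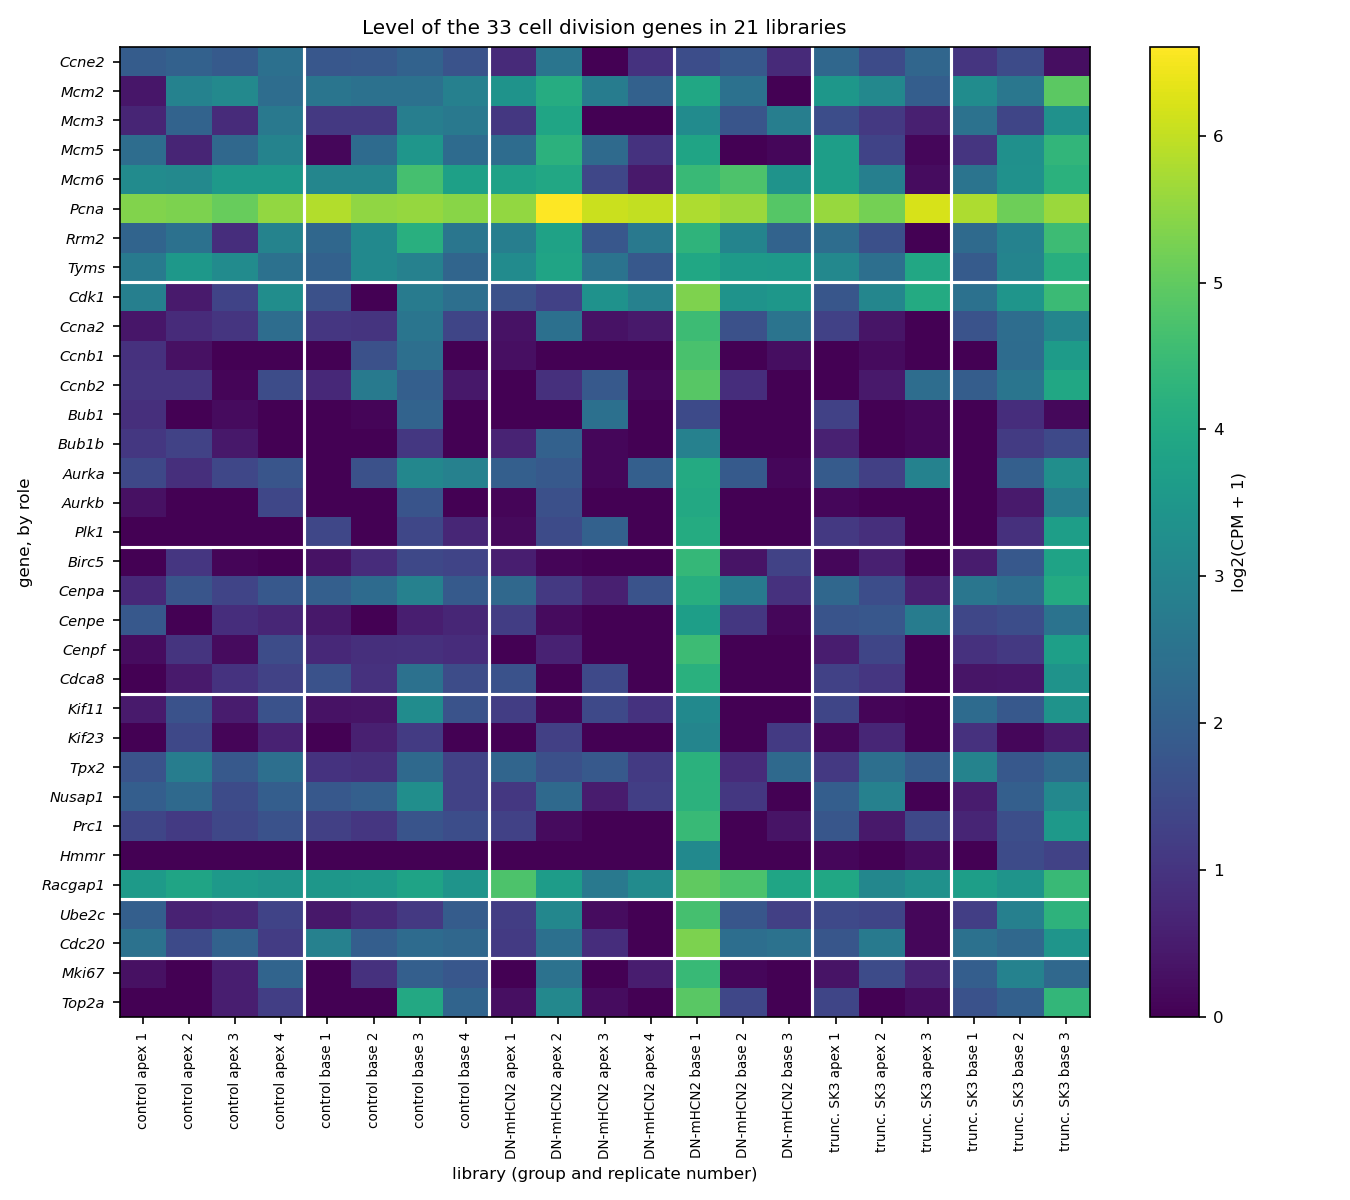
Level of the 33 cell division genes (rows, ordered by role and parted by white lines) in 21 libraries (columns, by group and replicate), as log2(CPM + 1) with the colour scale at the right. DN-mHCN2 base replicate 1 is bright in nearly every row of mitosis genes, truncated SK3 base replicate 3 less so, and Pcna and Racgap1 are bright in all libraries.

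The sum of the S phase genes followed another order. It was highest in DN-mHCN2 apex replicate 2 at 190 CPM, of which Pcna alone gave 96.3. Next came truncated SK3 base replicate 3 at 163 CPM (Pcna 47.7) and DN-mHCN2 base replicate 1 at 146 (Pcna 54.3). Control base replicate 3 was at 118 CPM (Pcna 46.3), and the other 17 libraries lay between 58.9 and 101 CPM. In DN-mHCN2 apex replicate 2 the mitosis genes summed to 61.1 CPM. That was the highest of the apex libraries, followed by 54.3 CPM in control apex replicate 4, and below the 108 CPM of control base replicate 3. The S phase sum of DN-mHCN2 base replicate 1 was 1.80 times the median of the other 19 libraries, and that of truncated SK3 base replicate 3 was 2.005 times. In both libraries the summed mitosis genes thus stood farther above that median than the summed S phase genes did. Pcna, at 28.3 CPM or more in every library, weighs on the S phase order and ratios, and no sum without it was taken.

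By role, the distance of DN-mHCN2 base replicate 1 from the median of the other 19 libraries differed. It was 13.7 times for mitotic kinases and cyclins (169 CPM against a median of 12.3), 13.6 times for genes of the centromere and passenger complex (88.0 against 6.46) and 12.4 times for mitotic exit (63.1 against 5.09). For spindle and cytokinesis genes it was 5.78 times (109.8 against 19.0 CPM). For Mki67 and Top2a together it was 52.4 times, but on a median of only 0.95 CPM. Racgap1, a spindle and cytokinesis gene, was at 5.31 CPM or more in all 21 libraries.

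Since the mitosis genes stood high together, the letters just before their start sites are given for a few of them. RefSeq promoter windows on GRCm38.p6, 250 bases before to 50 after the start, were at hand for 29 of 33 members, 22 of mitosis and 7 of S phase. The stretches below are the 120 bases before the start, written 5′ to 3′ on the strand of the gene. Capitals mark 3 motifs, searched on both strands: CHR (TTTGAA), the element that the DREAM complex and its successors bind in mitosis genes, the CCAAT box (CCAAT), bound by NF-Y, and E2F (TTTCCCGC, TTTCGCGC, TTTGCCGC or TTTGGCGC), where overlapping E2F words run on. Top2a (chr11:99024190-99024309, minus strand), Kif11 (chr19:37376262-37376381, plus) and Cdc20 (chr4:118437344-118437463, minus) show a CHR with CCAAT boxes. Mki67 (chr7:135716380-135716499, minus) has a pair of CHR motifs, Ccnb2 (chr9:70421555-70421674, minus) has CCAAT boxes in this stretch and its CHR before it, and Mcm6 (chr1:128359706-128359825, minus) stands for S phase with E2F words.
Top2a: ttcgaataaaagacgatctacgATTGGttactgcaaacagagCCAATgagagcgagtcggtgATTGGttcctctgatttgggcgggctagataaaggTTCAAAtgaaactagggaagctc
Kif11: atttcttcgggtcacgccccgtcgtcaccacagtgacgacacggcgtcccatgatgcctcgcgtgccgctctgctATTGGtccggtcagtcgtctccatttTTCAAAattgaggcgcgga
Cdc20: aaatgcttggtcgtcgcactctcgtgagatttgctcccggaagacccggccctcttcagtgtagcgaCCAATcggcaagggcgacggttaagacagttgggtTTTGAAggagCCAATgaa
Mki67: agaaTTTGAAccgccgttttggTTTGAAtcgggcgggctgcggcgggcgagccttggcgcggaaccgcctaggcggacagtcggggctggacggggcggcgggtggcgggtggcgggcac
Ccnb2: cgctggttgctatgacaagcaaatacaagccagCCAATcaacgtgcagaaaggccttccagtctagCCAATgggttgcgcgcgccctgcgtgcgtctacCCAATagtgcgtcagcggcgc
Mcm6: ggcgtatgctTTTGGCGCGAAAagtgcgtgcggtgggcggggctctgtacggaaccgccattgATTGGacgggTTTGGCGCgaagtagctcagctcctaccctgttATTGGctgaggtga

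A CHR was present in 17 of 22 windows of mitosis genes (77.3%), in 1 of 7 of S phase genes (Mcm2, 14.3%), and in 18.1% of the windows of all 27025 genes. CCAAT boxes were in 20 of 22 mitosis windows (90.9%), in 6 of 7 S phase windows and in 37.9% of all. Both motifs together were in 17 of 22 mitosis windows, 1 of 7 S phase windows and 7.12% of all. An E2F word was in 3 of 7 S phase windows (Mcm3, Mcm5 and Mcm6) and in 1 mitosis window, that of Cdk1, against 2.32% of all. These matches describe the letters of the windows and show no binding in these neurons.

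Of the S phase genes, Pcna, the ring that clamps DNA polymerases to their template, was the most abundant member per length of transcript, with a median of 30.5 CPM per kb over the 21 libraries. Its level (chromosome 2, 132249162 to 132253314 on GRCm38) was 39.9, 38.5, 32.9 and 45.3 CPM in control apex and 56.2, 44.9, 46.3 and 42.4 CPM in control base, in the order of replicates 1 to 4. In DN-mHCN2 it was 45.4, 96.3, 67.0 and 63.0 CPM in the apex and 54.3, 47.6 and 28.3 in the base, and with truncated SK3 47.4, 36.5 and 72.5 in the apex and 54.8, 34.1 and 47.7 in the base. The 4 DN-mHCN2 apex libraries lay above the 4 control apex libraries, by a narrow margin in replicate 1, and the base groups overlapped. The log2 fold change of Pcna in the apex was 0.80 (SE 0.255, edgeR adjusted p = 0.228) and that in the base was -0.13 (SE 0.274, edgeR adjusted p = 0.858). Neither passed the test. Since 31.8% of the 50-base stretches of its transcript also occur in other genes, mainly the pseudogene Pcna-ps2, its counts are uncertain.

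Mcm6, a subunit of the replicative helicase (chromosome 1, 128331590 to 128359664), was at 8.13, 7.56, 10.9 and 10.98 CPM in control apex and 7.15, 7.21, 24.2 and 12.4 CPM in control base. It was at 12.8, 14.4, 1.66 and 0.373 CPM in DN-mHCN2 apex, 21.4, 26.1 and 9.45 in DN-mHCN2 base, 12.1, 6.18 and 0.168 in truncated SK3 apex and 4.79, 9.12 and 17.7 in truncated SK3 base. The 2 lowest DN-mHCN2 apex libraries and the lowest truncated SK3 apex library were the lowest of all 21, and all groups overlapped. Tyms, which makes thymidylate for DNA synthesis (chromosome 5, 30058202 to 30073617), was at 5.57, 10.5, 8.13 and 4.52 CPM in control apex, 3.14, 7.70, 6.51 and 3.45 in control base, 8.10, 13.6, 4.73 and 2.54 in DN-mHCN2 apex and 14.3, 11.03 and 10.9 in DN-mHCN2 base. With truncated SK3 it was at 7.48, 4.31 and 14.5 CPM in the apex and 2.75, 6.86 and 16.7 in the base. Its 3 DN-mHCN2 base libraries lay above the 4 control base libraries. In the base, DN-mHCN2 against control gave log2 fold changes of 0.58 (SE 0.934, edgeR adjusted p = 0.802) for Mcm6 and 1.22 (SE 0.621, edgeR adjusted p = 0.304) for Tyms.

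The other 5 S phase genes were Mcm2, Mcm3 and Mcm5, further subunits of the helicase, Rrm2, a subunit of ribonucleotide reductase, and Ccne2, a cyclin of the entry into S phase. Each was counted in 19 or 20 of 21 libraries. Highest values were 29.5 CPM for Mcm2, 19.4 for Mcm5 and 22.1 for Rrm2, all in truncated SK3 base replicate 3, and 13.7 for Mcm3 and 4.97 for Ccne2 in DN-mHCN2 apex replicate 2. Their medians over all libraries ran from 1.94 CPM for Mcm3 to 5.89 for Mcm2.

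Among the mitotic kinases and cyclins, Cdk1 (chromosome 10, 69335146 to 69352938), the kinase that drives a cell into mitosis, was counted in 20 of 21 libraries. It was at 6.19, 0.386, 1.49 and 8.41 CPM in control apex and 2.09, 0, 5.77 and 4.36 in control base. In DN-mHCN2 it was at 2.09, 1.43, 9.37 and 6.498 CPM in the apex and 38.8, 9.45 and 10.4 in the base, and with truncated SK3 at 2.38, 7.18 and 15.5 in the apex and 4.49, 9.93 and 21.6 in the base. All 3 DN-mHCN2 base libraries lay above all control base and all DN-mHCN2 apex libraries, replicate 1 by far. Its log2 fold change in the base under DN-mHCN2 was 2.67 (SE 1.10, edgeR adjusted p = 0.193), and it was 1.69 without replicate 1. Of the 25 mitosis genes, 9 had a positive log2 fold change in the base of DN-mHCN2 mice when that library was left out. Cdk1 was 1 of them, without passing the test with or without that library.

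Ccnb2, a B-type cyclin partner of Cdk1 (chromosome 9, 70407692 to 70421547), was at 1.01, 1.00, 0.0678 and 1.88 CPM in control apex, 0.697, 5.65, 2.99 and 0.352 in control base, 0, 0.884, 2.57 and 0.0747 in DN-mHCN2 apex and 28.6, 0.834 and 0 in DN-mHCN2 base. With truncated SK3 it was at 0, 0.359 and 4.12 CPM in the apex and 2.86, 4.92 and 14.4 in the base. The DN-mHCN2 base group held both the highest library of all and one with no count. Aurka, the kinase of centrosomes and spindle poles (chromosome 2, 172356190 to 172370535), was at 1.70, 0.849, 1.63 and 2.36 CPM in control apex, 0, 2.12, 7.40 and 6.47 in control base, 3.004, 2.59, 0.0829 and 2.99 in DN-mHCN2 apex and 15.4, 2.69 and 0.0917 in DN-mHCN2 base. It was at 2.73, 1.36 and 6.65 CPM in truncated SK3 apex and 0, 2.99 and 8.61 in truncated SK3 base, so every group overlapped the others. In the base, DN-mHCN2 against control gave log2 fold changes of 2.01 (SE 1.65, edgeR adjusted p = 0.561) for Ccnb2 and 0.60 (SE 1.44, edgeR adjusted p = 0.873) for Aurka. Without DN-mHCN2 base replicate 1 they turned to -2.52 and -1.53.

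Plk1, a kinase needed at several steps of mitosis and named here after its values were seen, had no count in the 4 control apex libraries. It was at 1.66, 0, 1.63 and 0.633 CPM in control base, 0.131, 1.84, 3.15 and 0 in DN-mHCN2 apex, 15.6, 0 and 0 in DN-mHCN2 base, 1.14, 0.862 and 0 in truncated SK3 apex and 0, 0.888 and 11.99 in truncated SK3 base. Against a floor of 3 counts over the control apex group, its mean was at least 23.5-fold higher in DN-mHCN2 apex, at least 12.3-fold higher in truncated SK3 apex and at least 18.0-fold higher in control base. Each of these 3 groups nevertheless held at least 1 library with no count of Plk1, so none lay wholly above control apex. For the remaining genes of this class the highest values were 22.2 CPM for Ccna2, the cyclin of S phase and early mitosis, 25.1 for the cyclin Ccnb1, 14.9 for Aurkb, the kinase of the passenger complex, and 6.43 for Bub1b of the spindle checkpoint, all in DN-mHCN2 base replicate 1. Ccnb1, Bub1 and Aurkb were counted in 10, 10 and 9 of 21 libraries, and 42.1% of the Ccnb1 stretches also occur in other genes, mainly Ccnb1-ps.

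**Figure D3:**
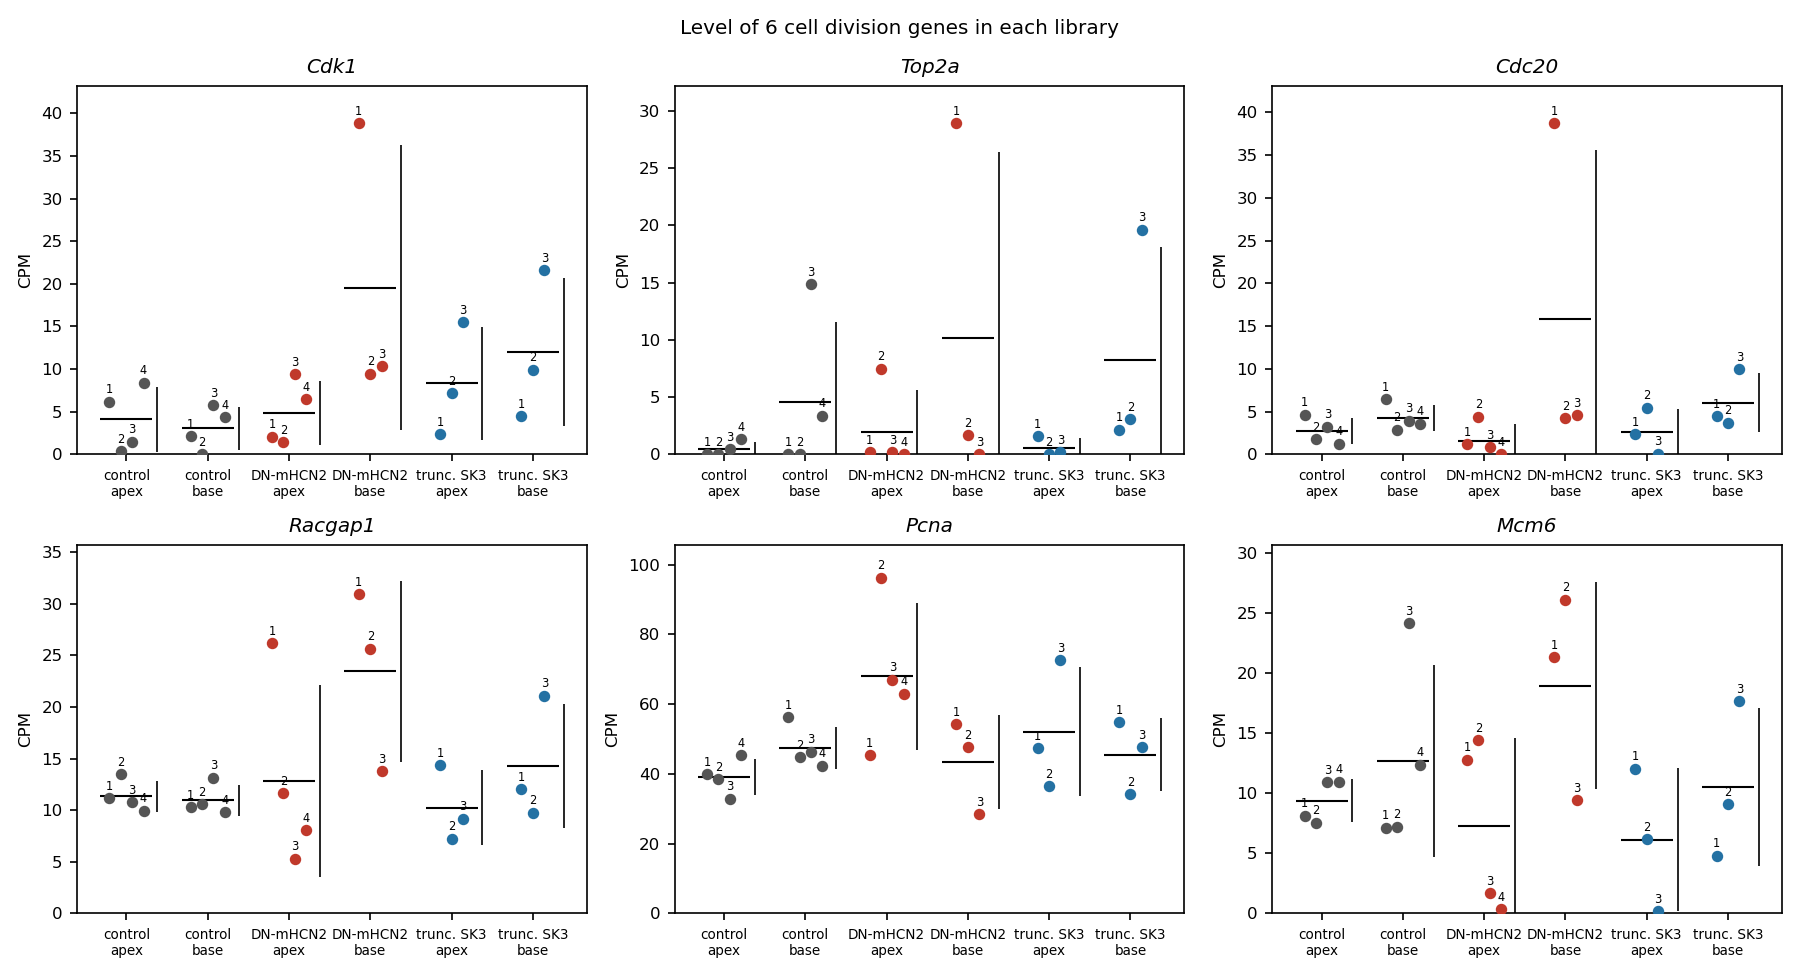
Level in CPM of Cdk1, Top2a, Cdc20, Racgap1, Pcna and Mcm6 in each library, by group. Points are libraries with their replicate number, horizontal lines are group means, and vertical lines span 1 SD to either side, cut off at 0. Cdk1, Top2a, Cdc20 and Racgap1 are highest in DN-mHCN2 base replicate 1, at 38.8, 28.9, 38.7 and 30.9 CPM, and Pcna and Mcm6 are not.

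In the centromere and passenger complex class, Cenpa, the histone variant that marks centromeres (chromosome 5, 30666777 to 30674830), was counted in all 21 libraries. It was at 0.697, 2.32, 1.56 and 2.50 CPM in control apex and 2.96, 3.96, 6.45 and 2.67 in control base, where each library exceeded all 4 of the apex. In DN-mHCN2 it was at 3.66, 1.16, 0.498 and 2.24 CPM in the apex and 16.5, 5.65 and 0.917 in the base, and with truncated SK3 at 3.61, 1.94 and 0.505 in the apex and 5.00, 4.12 and 15.5 in the base. Truncated SK3 base also lay above truncated SK3 apex throughout, while the DN-mHCN2 groups overlapped. Cdca8 (borealin), a passenger protein (chromosome 4, 124918465 to 124939311), was at 0, 0.386, 0.949 and 1.46 CPM in control apex, 2.18, 0.919, 4.55 and 1.90 in control base, 2.16, 0, 1.74 and 0 in DN-mHCN2 apex and 17.2, 0 and 0 in DN-mHCN2 base. It was at 1.41, 1.08 and 0 CPM in truncated SK3 apex and 0.306, 0.323 and 9.58 in truncated SK3 base, so its counts in the DN-mHCN2 base group came from replicate 1 alone.

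Cenpf, a protein of the outer kinetochore (chromosome 1, 189640606 to 189688086), was at 0.155, 1.00, 0.136 and 1.88 CPM in control apex, 0.697, 0.848, 0.882 and 0.774 in control base, 0, 0.544, 0 and 0 in DN-mHCN2 apex and 21.96, 0 and 0 in DN-mHCN2 base. With truncated SK3 it was at 0.440, 1.58 and 0 CPM in the apex and 0.918, 1.13 and 12.3 in the base. Truncated SK3 base lay above control base, with 0.918 CPM against 0.882 at the boundary, and 2 of 3 DN-mHCN2 base libraries had no count. Log2 fold changes in the base under DN-mHCN2 were 0.94 (SE 0.884, edgeR adjusted p = 0.623) for Cenpa, 1.26 (SE 1.88, edgeR adjusted p = 0.783) for Cdca8 and 3.18 (SE 1.85, edgeR adjusted p = 0.378) for Cenpf. All 3 turned negative without DN-mHCN2 base replicate 1. Of the other two genes, Birc5 (survivin), a further passenger protein, reached 20.2 CPM and Cenpe, the kinesin of the kinetochore, 12.1 CPM in DN-mHCN2 base replicate 1, against medians of 0.41 and 0.81 CPM over all libraries.

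Racgap1, which forms the centralspindlin complex with Kif23 at the site of cleavage (chromosome 15, 99620496 to 99651656), was counted in all 21 libraries, as was Tpx2 of the same class, at a median of 3.65 CPM per kb for Racgap1. It was at 11.1, 13.5, 10.8 and 9.94 CPM in control apex and 10.3, 10.6, 13.2 and 9.78 in control base. In DN-mHCN2 it was at 26.2, 11.6, 5.31 and 8.07 CPM in the apex and 30.9, 25.7 and 13.8 in the base, and with truncated SK3 at 14.4, 7.25 and 9.17 in the apex and 12.03, 9.77 and 21.1 in the base. The 8 control libraries kept within 9.78 to 13.5 CPM, and the DN-mHCN2 base libraries lay above those of control base. Its log2 fold change there was 1.10 (SE 0.444, edgeR adjusted p = 0.185), and it was 0.84 without replicate 1, short of the threshold in both fits.

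Tpx2, a factor of spindle assembly that activates Aurka (chromosome 2, 152847964 to 152895321), was at 2.24, 5.94, 2.58 and 4.31 CPM in control apex, 0.959, 0.848, 3.80 and 1.48 in control base, 3.46, 2.04, 2.57 and 1.20 in DN-mHCN2 apex and 17.5, 0.741 and 3.76 in DN-mHCN2 base. It was at 1.14, 4.31 and 2.69 CPM in truncated SK3 apex and 6.73, 2.50 and 3.68 in truncated SK3 base. Nusap1, which binds spindle microtubules (chromosome 2, 119618298 to 119651244), was at 2.94, 3.78, 1.83 and 2.92 CPM in control apex, 2.53, 2.97, 8.62 and 1.48 in control base, 1.11, 3.74, 0.415 and 1.34 in DN-mHCN2 apex and 17.8, 1.11 and 0 in DN-mHCN2 base. Apart from DN-mHCN2 base replicate 1, neither gene showed a group that lay clear of the rest. Nusap1 was at 2.91, 6.46 and 0 CPM in truncated SK3 apex and 0.408, 2.99 and 7.55 in truncated SK3 base. In the base under DN-mHCN2 the log2 fold changes were 2.04 (SE 0.880, edgeR adjusted p = 0.218) for Tpx2 and 0.70 (SE 1.37, edgeR adjusted p = 0.840) for Nusap1, and without replicate 1 they were 0.34 and -2.80.

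Hmmr, a protein of the spindle and a receptor for hyaluronan, was the rarest member and is named here after its values were seen. It was counted in 5 of 21 libraries, at 7.83 CPM in DN-mHCN2 base replicate 1, 1.86 and 1.45 CPM in truncated SK3 base replicates 2 and 3, and 0.0880 and 0.168 CPM in truncated SK3 apex replicates 1 and 3. No control library and no DN-mHCN2 apex library had a count. As 2 of 3 DN-mHCN2 base libraries had none, the mean of that group rests on replicate 1. Hmmr passed the low-count filter of the tests below only through the 3 libraries in which it was highest. No fold change is therefore read from its values. Of the other genes of the class, Prc1, which bundles microtubules of the midzone, reached 20.8 CPM and Kif23 7.10 CPM in DN-mHCN2 base replicate 1. Kif11 reached 9.58 CPM in truncated SK3 base replicate 3.

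The mitotic exit genes serve the anaphase-promoting complex, which marks cyclins and securin for destruction. Cdc20, its activator (chromosome 4, 118432901 to 118437352), was at 4.64, 1.78, 3.25 and 1.25 CPM in control apex, 6.45, 2.90, 3.94 and 3.59 in control base, 1.18, 4.42, 0.8295 and 0 in DN-mHCN2 apex and 38.7, 4.26 and 4.59 in DN-mHCN2 base. It was at 2.38, 5.46 and 0.0842 CPM in truncated SK3 apex and 4.49, 3.71 and 9.96 in truncated SK3 base. Ube2c, its ubiquitin-conjugating enzyme (chromosome 2, 164769898 to 164778822), was at 3.02, 0.540, 0.678 and 1.53 CPM in control apex, 0.349, 0.707, 1.15 and 2.81 in control base, 1.31, 7.35, 0.166 and 0 in DN-mHCN2 apex and 24.4, 2.41 and 1.38 in DN-mHCN2 base. Both had their highest value in DN-mHCN2 base replicate 1 and their second highest in truncated SK3 base replicate 3, and both overlapped between all groups. Ube2c was at 1.76, 1.58 and 0.0842 CPM in truncated SK3 apex and 1.33, 6.38 and 18.4 in truncated SK3 base. Under DN-mHCN2 the log2 fold changes in the base were 1.91 (SE 1.11, edgeR adjusted p = 0.377) for Cdc20 and 2.89 (SE 1.40, edgeR adjusted p = 0.274) for Ube2c, and they were 0.07 and 0.58 without replicate 1.

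Mki67, which coats mitotic chromosomes and is a common marker of cycling cells (chromosome 7, 135689784 to 135716361), was at 0.232, 0, 0.474 and 3.34 CPM in control apex, 0, 0.919, 2.99 and 2.46 in control base, 0, 4.63, 0 and 0.448 in DN-mHCN2 apex and 20.8, 0.0927 and 0 in DN-mHCN2 base. With truncated SK3 it was at 0.264, 1.87 and 0.589 CPM in the apex and 2.96, 6.62 and 3.68 in the base. Top2a, the topoisomerase that untangles sister chromatids (chromosome 11, 98992943 to 99024189), was at 0, 0, 0.474 and 1.32 CPM in control apex, 0, 0, 14.9 and 3.38 in control base, 0.196, 7.48, 0.166 and 0 in DN-mHCN2 apex and 28.9, 1.67 and 0 in DN-mHCN2 base. In both genes the 3 truncated SK3 base libraries lay above the 3 of truncated SK3 apex, and DN-mHCN2 base held the highest library and one at 0. Top2a was at 1.58, 0 and 0.168 CPM in truncated SK3 apex and 2.14, 3.07 and 19.6 in truncated SK3 base. The log2 fold changes in the base under DN-mHCN2 were 2.12 (SE 1.88, edgeR adjusted p = 0.596) for Mki67 and 1.16 (SE 2.04, edgeR adjusted p = 0.820) for Top2a, and they turned to -4.85 and -2.45 without replicate 1.

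The members were then compared between groups with edgeR's quasi-likelihood test, fitted to all 14968 genes that passed a filter on low counts and adjusted over all of them, with calls at a false discovery rate of 0.05. All 33 members passed the filter, Hmmr only through the 3 libraries in which it was highest, all from the base with a construct. No member was called in any of the 12 comparisons. The background differed widely between comparisons. For DN-mHCN2 against control, edgeR called 6.05% of all tested genes over both regions, 0.2% in the apex and 2.14% in the base. Of the members, 2, 2 and 5 had an unadjusted p under 0.05 in these comparisons, against 21.97%, 11.9% and 18.5% of all tested genes. DESeq2 called Hmmr and Plk1 over both regions (11.4% of its tested genes), Plk1 in the apex (1.59%) and Hmmr in the base (7.54%).

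For truncated SK3 against control, which shares the control libraries, edgeR called 0 members against 0.735% of all tested genes over both regions, 0.254% in the apex and 0.147% in the base. Unadjusted p-values under 0.05 were found for 2, 1 and 1 members, against 10.3%, 8.51% and 5.51% of all tested genes. DESeq2 called Hmmr and Plk1 over both regions (2.23% of its tested genes) and in the apex (1.05%), and Hmmr in the base (0.565%). Hmmr was counted in 5 and Plk1 in 11 of 21 libraries, so these calls rest on few libraries with counts. In truncated SK3 apex Hmmr was at 0.0880, 0 and 0.168 CPM, where 3 counts were worth at least 0.196 CPM in any library. No change of Hmmr is read from its call there.

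Base against apex, which asks whether cell division genes differ along the cochlea, gave 0 calls among the members in each condition. The background of genes called by edgeR was 0.0% of all tested genes in control, 0.214% in DN-mHCN2 and 0.0134% in truncated SK3. Members with an unadjusted p under 0.05 numbered 1, 10 and 3, against 4.82%, 12.1% and 9.58% of all tested genes. Without DN-mHCN2 base replicate 1 the 10 members in DN-mHCN2 became 4. DESeq2 called Plk1 in control (0.558% of its tested genes), Birc5 and Hmmr in DN-mHCN2 (2.55%) and none in truncated SK3 (1.42%). Between the constructs over both regions edgeR called 0 members and 0.655% of all tested genes, and DESeq2 called no member (3.7%). No member had an unadjusted p under 0.05 there, against 14.5% of all tested genes. The interaction of DN-mHCN2 and region gave 0 edgeR calls (0.00668% of tested genes), and Hmmr and Plk1 with DESeq2 (0.826%). In it 4 members had an unadjusted p under 0.05, against 6.85% of all tested genes. For truncated SK3 and region edgeR gave 0 calls (0.0% of tested genes), and DESeq2 called Plk1 (0.141%). Before adjustment no member was under 0.05 there, against 3.64% of all tested genes.

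Some members did not overlap between groups. In the apex, Pcna alone was higher in every DN-mHCN2 library than in every control library, where 4.59% of tested genes were, and none was lower throughout (4.88%). In the base, Tyms, Cdk1 and Racgap1 were higher throughout (3 of 33, against 8.02%), and no member was lower throughout (9.03%). With truncated SK3 no member parted in the apex (5.02% higher, 6.77% lower), and in the base Cenpe and Cenpf were higher (3.91%) and Ccne2 lower (4.55%). Base lay above apex for Cenpa in control (2.64%), where no member was lower throughout (2.85%), for Cdk1 in DN-mHCN2 (3.63%; 2.87% of tested genes and no member were lower) and for Ccna2, Cenpa, Kif11, Mki67 and Top2a in truncated SK3 (6.27%). Ccne2 was lower in the base than in the apex with truncated SK3 (6.37%). The share of members was near or below the background except in truncated SK3 base against apex, where 5 of 33 were higher throughout. That share is no test, since the members were chosen with earlier results of these data known. In that comparison 3 members had an unadjusted edgeR p under 0.05, and 0 had without truncated SK3 base replicate 3.

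The median change of the members showed how far 1 library carried the group. In the base, DN-mHCN2 against control had a median log2 fold change of 1.91 over the members, with 29 of 33 positive, beside a median of 0.03 over all tested genes, 52.4% of them positive. The genes of mitosis had a median of 2.12 and those of S phase 0.25. Without DN-mHCN2 base replicate 1 the median of the members was -0.73, with 12 positive and 21 negative, and that of all genes was -0.01. The direction over the members thus turned with that library. Over both regions the median went from 0.64 to -0.35 without it, and base against apex in DN-mHCN2 from 2.02 to -0.41. For the interaction of DN-mHCN2 and region it went from 1.48 to -1.49, and for DN-mHCN2 against truncated SK3 from 0.27 to -1.16.

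With truncated SK3 in the base, the median log2 fold change of the members was 1.04, with 27 of 33 positive, beside 0.01 over all tested genes. Without truncated SK3 base replicate 3 it was 0.13, with 17 positive and 16 negative. Base against apex with truncated SK3 had a median of 2.02, and of 0.63 with 21 positive without that library. Over both regions the value was 0.40, and -0.04 without it, and for the interaction of truncated SK3 and region it was 1.01, and 0.14 without it. The apex comparisons, which hold neither library, had medians near 0, at 0.10 for DN-mHCN2 with 18 positive and 14 negative, and -0.12 for truncated SK3 with 15 positive and 18 negative. In control, base against apex had a median of 0.44 with 23 positive, beside 0.00 over all genes. Comparisons that share a library or the control libraries are not independent, and the fold changes of members with no count in a group depend on the fit.

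**Figure D4:**
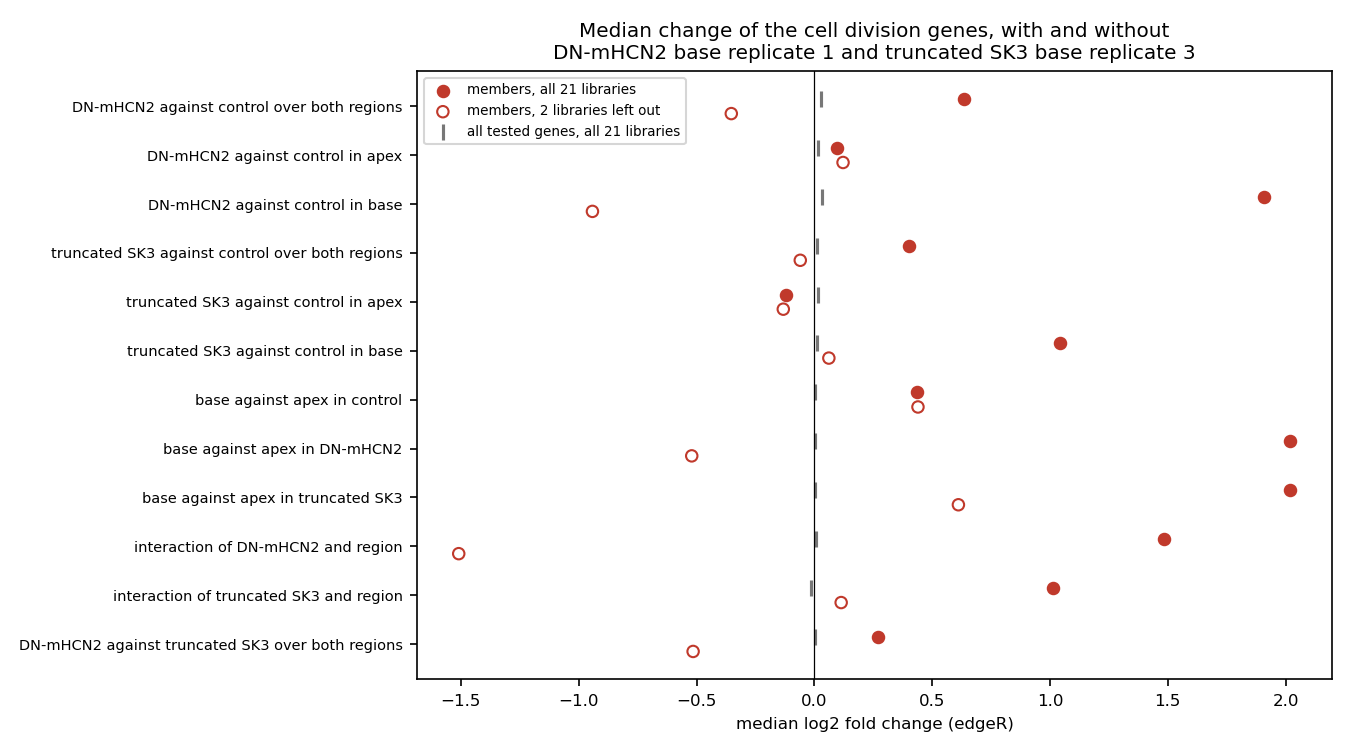
Median log2 fold change (edgeR) of the cell division genes in 12 comparisons, with all 21 libraries (filled) and without DN-mHCN2 base replicate 1 and truncated SK3 base replicate 3 (open), beside the median of all tested genes (grey bars). The filled points of comparisons that hold either library lie to the right, at up to 2.02, and their open points lie near or below 0, except base against apex in truncated SK3 at 0.61.

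Markers of other cell types differed between these libraries as well. DN-mHCN2 base replicate 1 had the lowest sum of all 21 libraries both for the 11 neuron markers, at 8909 CPM, and for the 13 markers of Schwann cells and satellite glia, at 9159 CPM. Truncated SK3 base replicate 3 was not low in them, with 14396 CPM (rank 8 from the highest) and 23413 CPM (rank 4). The 10 fibroblast markers of DN-mHCN2 base replicate 1 summed to 3672 CPM, second to 3728 CPM in control base replicate 3, and none was at 0. In DN-mHCN2 base replicates 2 and 3 they summed to 1849 and 727 CPM. Over the other groups the fibroblast sum was 406 to 1122 CPM in control apex, 491 to 3728 in control base and 499 to 2612 in DN-mHCN2 apex. It was 707 to 2218 CPM in the apex with truncated SK3 and 755 to 1730.3 in the base with it. The 3 libraries with the highest sum of mitosis genes in the base groups thus included the 2 highest in fibroblast markers. The remaining library, truncated SK3 base replicate 3, ranked 7 of 21. Ranks 3 and 4 in fibroblast markers, at 2612 and 2218 CPM, were replicate 1 of DN-mHCN2 apex and of truncated SK3 apex. Their mitosis genes summed to only 50.1 and 46.0 CPM.

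Endothelial markers (10 genes) summed to 283 CPM in truncated SK3 base replicate 3, the highest of all libraries, with none at 0 and 6 of the 10 at their highest there. They summed to 141 CPM in DN-mHCN2 base replicate 1, and the groups spanned 8.59 to 91.7 CPM in control apex, 24.7 to 69.8 in control base, 14.8 to 139 in DN-mHCN2 apex and 7.90 to 159 in truncated SK3 apex. The 6 pericyte markers summed to 191 CPM in truncated SK3 base replicate 3, second of all libraries, and to 30.7 CPM with Kcnj8 and Higd1b at 0 in DN-mHCN2 base replicate 1. Supporting cell markers (12 genes) summed to 2457 CPM in DN-mHCN2 base replicate 1 and 538 CPM in truncated SK3 base replicate 3, within a range of 153 to 10348 CPM over all libraries. Macrophage markers (15 genes) went the other way in DN-mHCN2 base, with 30.1 CPM in replicate 1, C1qc and Fcer1g at 0 among them, and up to 1816 CPM in the others. They summed to 27.1 CPM in truncated SK3 base replicate 3. In DN-mHCN2 base replicate 1 and truncated SK3 base replicate 3, markers of the oligodendrocyte lineage (6 genes) summed to 1.87 and 61.5 CPM, within a range of 0.849 to 3452 CPM over all libraries. Those of hair cells (6 genes) summed to 6.76 and 7.45 CPM, within a range of 1.63 to 514 CPM. Red blood cell markers (5 genes) summed to 776 and 2859 CPM in these libraries, within a range of 5.84 to 4150 CPM. The part of these cells in the levels of the cell division genes was not tested.

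Other genes of the cell cycle were taken from 3 lists. Of 36 further replication genes, such as Mcm4, Cdc6 and Pola1, all were tested and none was called by edgeR in any comparison, with 0 to 4 at an unadjusted p under 0.05. Of 50 further mitosis genes, such as Anln and Ndc80, 43 were tested. Under DN-mHCN2 over both regions 2 of them fell, where 6.05% of all tested genes were called in either direction. With truncated SK3, 1 fell over both regions (0.735%) and 1 in the apex (0.254%). Of 39 regulators of the step from G1 to S phase, 37 were tested. Under DN-mHCN2, 2 rose over both regions (6.05%), 2 in the base (2.14%) and 1 in base against apex (0.214%). The median log2 fold change of the further mitosis genes in the base under DN-mHCN2 was 0.99, and that of the replication genes was 0.08. As background for the genes below, 4.88% of tested genes in the apex and 9.03% in the base were lower in every DN-mHCN2 library than in every control. Higher throughout were 4.59% and 8.02%. With truncated SK3, 6.77% and 4.55% were lower throughout. Such shares were not counted over both regions together.

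Pttg1, the securin that holds separase in check until anaphase (chromosome 11, 43420250 to 43426251), fell with both constructs. It was at 38.8, 31.5, 34.9 and 49.6 CPM in control apex and 47.3, 64.4, 50.4 and 59.0 in control base. In DN-mHCN2 it was at 2.87, 2.04, 3.40 and 1.42 CPM in the apex and 16.4, 0.371 and 2.94 in the base, and with truncated SK3 at 2.29, 0.144 and 1.85 in the apex and 2.45, 4.60 and 17.3 in the base. Every control library lay above every library of either construct, and among the latter DN-mHCN2 base replicate 1 and truncated SK3 base replicate 3 were again the highest. It changed on the log2 scale by -3.52 (SE 0.608, edgeR adjusted p = 0.00233) under DN-mHCN2 and -3.77 (SE 0.652, edgeR adjusted p = 0.00533) with truncated SK3 over both regions, against shared controls. These calls held in all 15 and all 14 fits that left out 1 library. Truncated SK3 in the apex gave -4.77 (SE 0.979, edgeR adjusted p = 0.0438), a call lost in all 7 such fits.

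Hjurp, the chaperone that places Cenpa at centromeres (chromosome 1, 88262471 to 88277633), was at 18.9, 14.4, 33.6 and 35.9 CPM in control apex and 13.4, 19.0, 22.4 and 37.3 in control base. It was at 10.7, 11.8, 5.47 and 6.27 CPM in DN-mHCN2 apex and 10.8, 2.13 and 8.71 in DN-mHCN2 base, and at 13.4, 14.2 and 7.49 and 11.7, 15.02 and 13.8 CPM in truncated SK3 apex and base. All 7 DN-mHCN2 libraries lay below all 8 control libraries, and those of truncated SK3 overlapped both. The change under DN-mHCN2 over both regions was -1.63 on the log2 scale (SE 0.336, edgeR adjusted p = 0.00725), called in all 15 fits that left out 1 library. Cenpa, its cargo, was not called in that comparison.

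E2f4, an E2F factor of the DREAM complex (chromosome 8, 105297663 to 105305370), was at 21.8, 31.3, 20.9 and 28.5 CPM in control apex, 30.2, 24.9, 15.7 and 32.2 in control base, 52.3, 59.3, 37.7 and 62.1 in DN-mHCN2 apex and 55.8, 60.1 and 70.0 in DN-mHCN2 base. With truncated SK3 it was at 26.1, 41.2 and 51.8 CPM in the apex and 27.6, 19.4 and 54.5 in the base. All 7 DN-mHCN2 libraries lay above all 8 control libraries. E2f4 rose by a log2 fold change of 1.16 (SE 0.218, edgeR adjusted p = 0.00372) under DN-mHCN2 over both regions, in all 15 fits that left out 1 library, and by 1.27 (SE 0.318, edgeR adjusted p = 0.0431) in the base, in 1 of 7 such fits. DN-mHCN2 base replicate 1, the highest of its group in the sum of mitosis genes, was the lowest of its group for E2f4 at 55.8 CPM. Truncated SK3 base replicate 3, also the highest of its group in that sum, was the highest of its group for E2f4 at 54.5 CPM. A link between E2f4 and the mitosis genes was not tested.

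E2f6, a repressor of the same family (chromosome 12, 16810963 to 16839742), had a mean of 29.99 ± 10.2 CPM in control apex (SD, n = 4), 39.0 ± 7.35 (n = 4) in control base, 50.0 ± 5.82 (n = 4) in DN-mHCN2 apex and 65.9 ± 31.7 (n = 3) in DN-mHCN2 base. Over both regions the change under DN-mHCN2 was 0.75 on the log2 scale (SE 0.222, edgeR adjusted p = 0.0494), a call held in 1 of 15 fits that left out 1 library. Cdk6, a kinase that acts with D-type cyclins (chromosome 5, 3341485 to 3531008), was at 6.12, 7.56, 9.62 and 11.4 CPM in control apex, 5.84, 12.9, 13.0 and 11.1 in control base, 10.6, 6.40, 4.56 and 6.05 in DN-mHCN2 apex and 29.3, 35.1 and 27.4 in DN-mHCN2 base. The DN-mHCN2 base libraries lay above all others, since Cdk6 was at 13.3, 5.89 and 15.8 CPM in truncated SK3 apex and 7.65, 10.3 and 8.32 in truncated SK3 base. Its log2 fold changes were 1.51 (SE 0.390, edgeR adjusted p = 0.0477) against control in the base, a call lost in all 7 fits that left out 1 library, and 2.14 (SE 0.395, edgeR adjusted p = 0.0350) for base against apex in DN-mHCN2, held in 2 of 7.

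**Figure D5:**
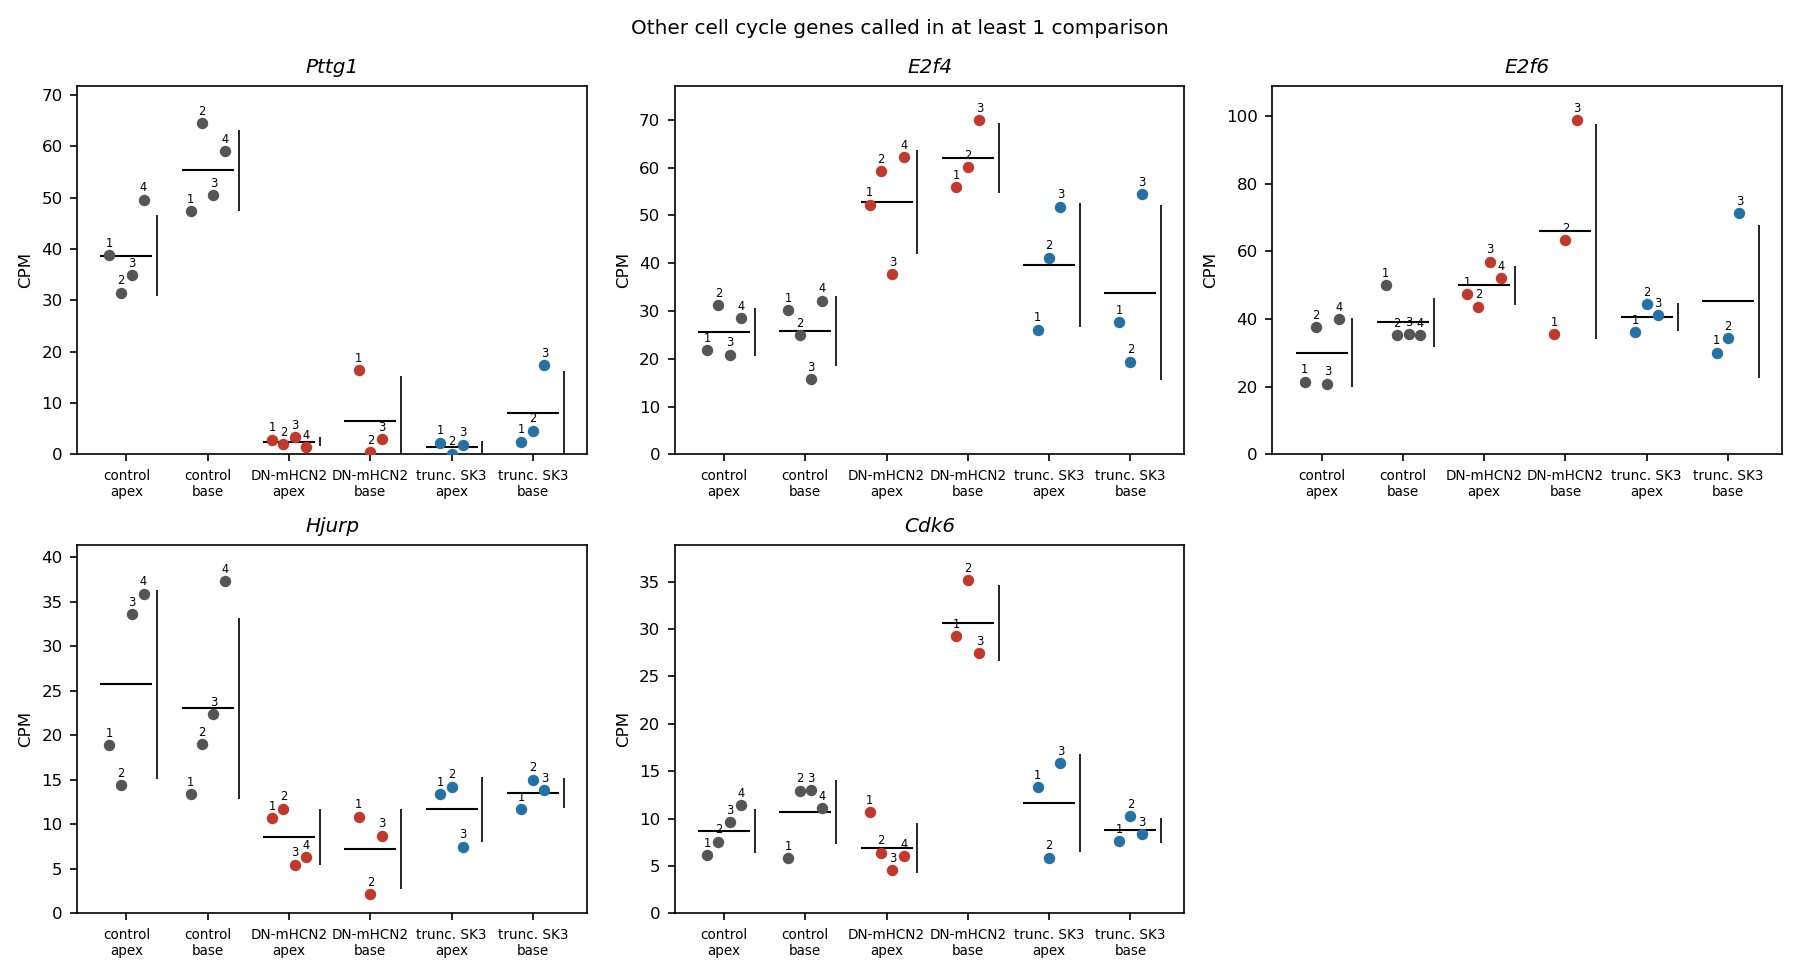
Level in CPM of Pttg1, E2f4, E2f6, Hjurp and Cdk6, the cell cycle genes outside the 33 that edgeR called in at least 1 comparison, in each library by group. Points are libraries with their replicate number, horizontal lines are group means, and vertical lines span 1 SD to either side, cut off at 0. Pttg1 is at 31.5 CPM or more in all control libraries and at 17.3 CPM or less in all others.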

How the data were processed

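Gene counts were deposited by the authors as 1 table of 21878 rows for 21 libraries, of which 3555 rows were at 0 throughout and 27 carried dates in place of gene symbols. Per the submitters' processing notes, Trimmomatic, HISAT2 and DESeq2 were used with the builds GRCm38 and mm10, and the read counter and annotation are not given in the sources used here. Since counts carry no molecular identifiers, amplified copies of a molecule were counted as separate reads, and Smart-seq2 keeps no strand. Reads of overlapping or antisense genes could not be told apart. Library totals ran from 10411634 to 15138780 counts.

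Counts were tested with edgeR 4.0.16 in R 4.3.3 (filterByExpr with a minimum count of 10 and a minimum total of 15, TMM, robust quasi-likelihood fit of 6 group means, Benjamini-Hochberg adjustment over 14968 genes, calls at 0.05), so that all groups shared 1 estimate of the spread per gene. CPM are counts over the TMM-scaled total. On simulated counts for DN-mHCN2 against control over both regions (14623 genes), 14% of genes changed by a fold of 1.5, 60% at a fold of 2 and 71.7% at a fold of 4 were recovered, with 5 calls among 14424 unchanged genes. Alternatives were RLE size factors, no filter on low counts, DESeq2 1.42.0, a replicate block, leaving out each library and, chosen after seeing the data, leaving out the 2 libraries richest in mitosis genes together.

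The 33 members and the lists of pathway and cell type genes were chosen with earlier results of these data known. Named with full values were the 3 members of each role with the highest mean CPM, 16 in all, and any member or, up to 4 per comparison by smallest p, any pathway gene that was called. Knl1 and Sgo1, by these symbols, were not analysed here. Coordinates come from GENCODE M21 on GRCm38 and promoter windows from RefSeq on GRCm38.p6. Sharing with other genes is the percentage of 50-base stretches of a gene's longest transcript found in other genes, and it passed 20% for 2 members, Pcna and Ccnb1.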

Additional observations from a re-analysis of the deposited data

Results flagged for a closer look

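Of 74 sets of 4 libraries looked at, each of 1 gene or sum in 1 group, 9 held a library that lay far from the other three by Dixon's test at 95%. Chance gives such a gap in about 1 in 20 groups of normally distributed values, and this rate need not hold for genes with many libraries at 0. Groups of 3, which include both libraries richest in mitosis genes, were not looked at. DN-mHCN2 apex replicate 2 stood high for Top2a at 7.48 CPM, for Mki67 at 4.63 CPM, for Cenpf at 0.544 CPM where the other three had no count, and for the sum of the 8 S phase genes at 190 CPM. With the rest of the group at 0, any count of Cenpf would have been flagged. DN-mHCN2 apex replicate 3 stood low for Aurka at 0.0829 CPM. In control base, replicate 3 stood high for the sum of all 33 genes at 226 CPM and of the S phase genes at 118 CPM, and replicate 1 for E2f6 at 50.03 CPM. Control apex replicate 4 stood high for Mki67 at 3.34 CPM.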

How the results depend on the processing

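The count of 0 cell division genes called held in all 12 comparisons with RLE size factors, without the filter on low counts, with the replicate block, in every fit that left out 1 library and without both libraries richest in mitosis genes. DESeq2 called 2 members for DN-mHCN2 and for truncated SK3 against control over both regions, for truncated SK3 in the apex, for base against apex in DN-mHCN2 and for the interaction of DN-mHCN2 and region. It called 1 for DN-mHCN2 in the apex, for each construct in the base, for base against apex in control and for the interaction of truncated SK3 and region. The cause was not tested. Over all genes DESeq2 called 1661 against edgeR's 906 for DN-mHCN2 over both regions, 232 against 30 in the apex and 1101 against 320 in the base. For truncated SK3 the counts were 320 against 110, 156 against 38 and 81 against 22, for base against apex 83 against 0 in control, 379 against 32 in DN-mHCN2 and 212 against 2 in truncated SK3, for the interactions 123 against 1 and 21 against 0, and between the constructs 540 against 98. Replicate numbers did not pair libraries: of 48 same-numbered pairs 6 correlated above 0.1, with a median r of -0.02. With the replicate block the all-gene counts fell to 602 for DN-mHCN2 over both regions, 141 in the base, 69 for truncated SK3 over both regions, 4 for base against apex in DN-mHCN2, 1 in truncated SK3 and 0 for the interaction of DN-mHCN2 and region. Without the filter, base against apex in DN-mHCN2 had 18 calls and truncated SK3 3.

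With 1 library left out at a time, all-gene counts ranged from 520 to 1429 for DN-mHCN2 over both regions, 16 to 86 in the apex, 107 to 569 in the base, 61 to 114 for truncated SK3 over both regions, 19 to 62 in its apex, 11 to 22 in its base, 4 to 178 for base against apex in DN-mHCN2, 0 to 26 in truncated SK3 and 0 to 2 in control, 0 to 34 for the interaction of DN-mHCN2 and region and 52 to 354 between the constructs, and the count was 0 in each fit for the interaction of truncated SK3 and region. Log2 fold changes in the base under DN-mHCN2 then ranged from -0.32 to 0.12 for Pcna (above 0 without DN-mHCN2 base replicate 3). Without DN-mHCN2 base replicate 1 they reached their lowest values for Ccnb2 (-2.52 to 2.87), Aurka (-1.53 to 1.20), Cenpa (-0.29 to 1.48), Cdca8 (-7.94 to 1.87), Cenpf (-6.38 to 3.79), Nusap1 (-2.80 to 1.44), Top2a (-2.45 to 3.16) and Mki67 (-4.85 to 2.73). Without that library and truncated SK3 base replicate 3 together they were -2.51, -1.52, -0.29, -7.96, -6.39, -2.79, -2.44 and -4.84 in the same order. Cdca8 and Cenpf had no count in DN-mHCN2 base once replicate 1 was left out. The size of their negative values there depends on the fit and measures no fall. Mean sums of the 33 genes ranged, leaving out 1 library, from 106.5 to 121 CPM in control apex, 121 to 159 in control base, 119 to 169 in DN-mHCN2 apex, 130.5 to 392.5 in DN-mHCN2 base and, with truncated SK3, 124 to 143 (apex) and 145 to 281 (base). Of the calls of other cell cycle genes, Cdk6 under DN-mHCN2 in the base had an edgeR adjusted p of 0.0607 without the filter and 0.0932 with the replicate block, and in base against apex 0.0972 with the block. E2f4 in the base had 0.0662 with the block, E2f6 0.0557 without the filter and 0.0803 with the block, and Pttg1 with truncated SK3 in the apex 0.0645 without the filter.

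Precision was limited by groups of 3 or 4 libraries and by mitosis genes with few counts, since 1 count was worth up to 0.102 CPM and 3 counts up to 0.306 CPM.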
